A study of Mus musculus with 6 samples.

Results

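The genes described here encode the writers, readers and erasers of methylation on lysine 27 of histone H3 (H3K27). They are *Ezh2*, *Ezh1*, *Eed*, *Suz12* and *Jarid2* of Polycomb repressive complex 2 (PRC2), *Ring1*, *Bmi1* and *Cbx2* of Polycomb repressive complex 1 (PRC1), and the demethylases *Kdm6a* and *Kdm6b*. They were picked by name, and each of these 10 symbols was found once among the 54525 genes counted. RNA-seq was performed on C2C12 cells, an established mouse myoblast line, with wild-type genotype and no treatment. The groups were myoblasts at day 0 (D0, 3 libraries) and myotubes at day 5 of differentiation (D5, 3 libraries), which share the same line, so they are a model of muscle differentiation in a single immortalized clone. The labels give the cell type of every library as myoblast, and the day is what separates the groups in them. Per the paper's methods, growth medium held fetal bovine serum and differentiation medium held a lower share of horse serum. Day and medium thus changed together and cannot be told apart. Depth was greater at D0, with 36555048 to 40895840 gene counts a library, than at D5, with 25449759 to 25811300.

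Muscle and cell cycle genes followed the labelled days. Of 9 muscle genes, 7 were higher at D5 in edgeR's test, among them the embryonic myosin *Myh3* (log2 fold change 11.44), the fusion protein *Mymk* (9.02), muscle creatine kinase *Ckm* (8.30) and the differentiation factor *Myog* (7.54). The 2 that were lower were the myoblast factors *Myf5* (-2.32) and *Myod1* (-0.71). Of 11 proliferation genes, 10 were lower and 1, the transcription factor *E2f2*, was higher (2.14). *Ccna2* (-5.17), *Mki67* (-5.11), *Ccnb1* (-5.03) and *Top2a* (-4.91) fell the most, and the summed level of the 11 genes went from between 2611 and 2635 CPM (counts per 1000000 counts) at D0 to between 274 and 285 CPM at D5. Markers of endothelium, blood, epithelium, fat and neurons summed to between 15 and 24 counts a library, with 7 of the 9 not detected (3 counts or fewer in every library; *Cdh5*, *Ptprc*, *Adgre1*, *Epcam*, *Krt8*, *Adipoq* and *Rbfox3*). *Hba-a1*, a globin and the 1 marker tested, averaged 0.274 ± 0.055 CPM in the D0 and 0.643 ± 0.064 CPM in the D5 libraries (SD, n = 3).

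PRC2 is the enzyme complex that methylates H3K27, a mark of silenced genes. Its catalytic subunit is either EZH2, which is known for its high level in dividing cells, or EZH1, which is known for its presence in resting and differentiated cells, and it works only together with EED and SUZ12. Canonical PRC1 is recruited to the mark by a chromobox (CBX) protein and ubiquitinates histone H2A through RING1 or RNF2 paired with a PCGF protein such as BMI1, whereas KDM6A and KDM6B remove the mark. In skeletal muscle, Polycomb proteins are known to hold muscle genes silent in myoblasts, and the demethylases to act at those genes as differentiation proceeds.

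Each of the 10 genes passed edgeR's quasi-likelihood test at an adjusted p under 0.05. Expression of 6 was decreased in myotubes (*Ezh2*, *Cbx2*, *Suz12*, *Kdm6b*, *Eed* and *Bmi1*) and expression of 4 was increased after TMM (*Ezh1*, and *Ring1*, *Jarid2* and *Kdm6a*, which were below 0 under other scalings). Against this, 82.9% of the 16290 genes tested passed, 40.8% lower and 42.2% higher, so a call alone was common. In CPM the libraries of the 2 days did not overlap for any of the 10, as for 83.3% of the genes tested (41.1% lower, 42.2% higher). The sizes of the changes ranged widely. *Ezh1* and *Ezh2* changed almost 4-fold in opposite directions, *Cbx2* fell to 35.1% and *Suz12* to 52.2% of the D0 level, and the other 6 genes stayed between 66.9% and 132% of it. These are changes relative to the typical gene, since the libraries were scaled by TMM, under which the median log2 fold change of all genes tested was 0.0022. Under scaling to the ERCC spike-ins that median was -0.58, and with counts left unscaled it was -0.68. In both of those settings *Ring1*, *Jarid2* and *Kdm6a* turned negative, while *Ezh2*, *Suz12*, *Cbx2* and *Ezh1* kept their direction and passed. With the spike-ins 3 of the 10 genes were called lower and 1 higher, beside 23.0% and 11.1% of the genes tested. Without scaling 9 were called lower and 1 higher, beside 67.2% and 20.6%. Counts left unscaled keep the greater depth of the D0 libraries, which lowers every log2 fold change in that setting.

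**Figure D1:**
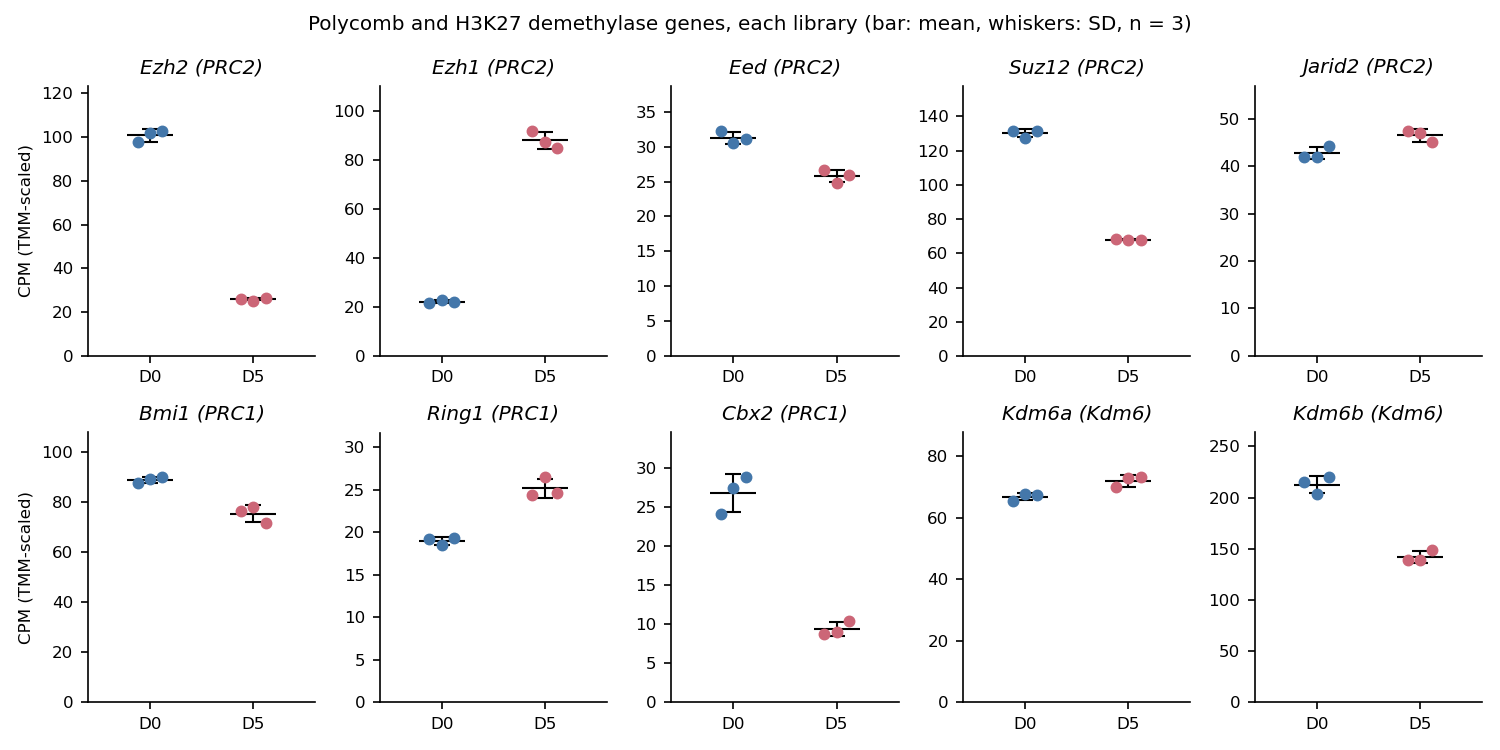
TMM-scaled CPM (vertical axes, from 0) of the 10 genes in each of the 3 D0 (blue) and 3 D5 (red) libraries, with the mean and SD as bars. The groups do not overlap in any panel, with the widest gaps for *Ezh2* and *Ezh1* and the narrowest for *Jarid2*, where the highest D0 library is at 44.3 CPM and the lowest D5 library at 45.0 CPM.

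*Ezh2* (chr6:47530139-47595341, minus strand, GRCm38), the methyltransferase of dividing cells, was at 97.5, 102 and 103 CPM in the D0 libraries and at 26.2, 25.2 and 26.5 CPM in the D5 libraries. All D5 libraries lay far below all D0 libraries, and the spread within each group was small. The mean went from 100.74 ± 2.82 to 25.99 ± 0.67 CPM (SD, n = 3), and the log2 fold change was -1.95 (SE 0.04, adjusted p 5.4e-27 in edgeR's test). *Ezh2* kept 25.8% of its D0 level, and 6.40% of the genes tested fell further. In a bulk culture, fewer cells that express a gene and less of its RNA per cell cannot be told apart.

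*Ezh1* (chr11:101191115-101226463, minus strand), the second methyltransferase, moved the other way. Its level was 21.8, 22.9 and 22.1 CPM at D0 and 91.97, 87.7 and 85.0 CPM at D5, so that again the groups were far apart. The mean rose from 22.25 ± 0.58 to 88.21 ± 3.51 CPM (SD, n = 3), with a log2 fold change of 1.99 (SE 0.04, adjusted p 7.4e-27 in edgeR's test). This was a 3.96-fold rise, and 10.8% of the genes tested had a higher log2 fold change. With the spike-ins as the scale the log2 fold change was 1.43 (SE 0.53, adjusted p 0.024 in edgeR's test), and that of *Ezh2* was -2.54 (SE 0.55, adjusted p 2.9e-05).

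The balance of the methyltransferases turned over. Compared per length, in TPM (counts divided by exonic length and scaled to the library's total), *Ezh2* exceeded *Ezh1* by 4.99, 4.96 and 5.18 times in the D0 libraries, whereas in the D5 libraries *Ezh1* exceeded *Ezh2* by 3.15, 3.12 and 2.88 times. This ratio is taken within a library and does not depend on how libraries are scaled. The log2 ratio of *Ezh2* to *Ezh1* fell by 3.94 from D0 to D5, a 15.4-fold change, and over all pairs of a D0 with a D5 library this difference was between 3.84 and 4.03. The exact two-sided permutation test gave p = 0.1 (adjusted p 0.1 over the 4 ratios tested), the smallest that 3 libraries against 3 can give. *Ezh1* made up 16.5% ± 0.32 of the summed TPM of both genes at D0 and 75.3% ± 0.93 at D5 (SD, n = 3). The sum itself went from 62.5 ± 2.57 to 48.9 ± 2.41 TPM, a smaller change than that of either gene.

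**Figure D2:**
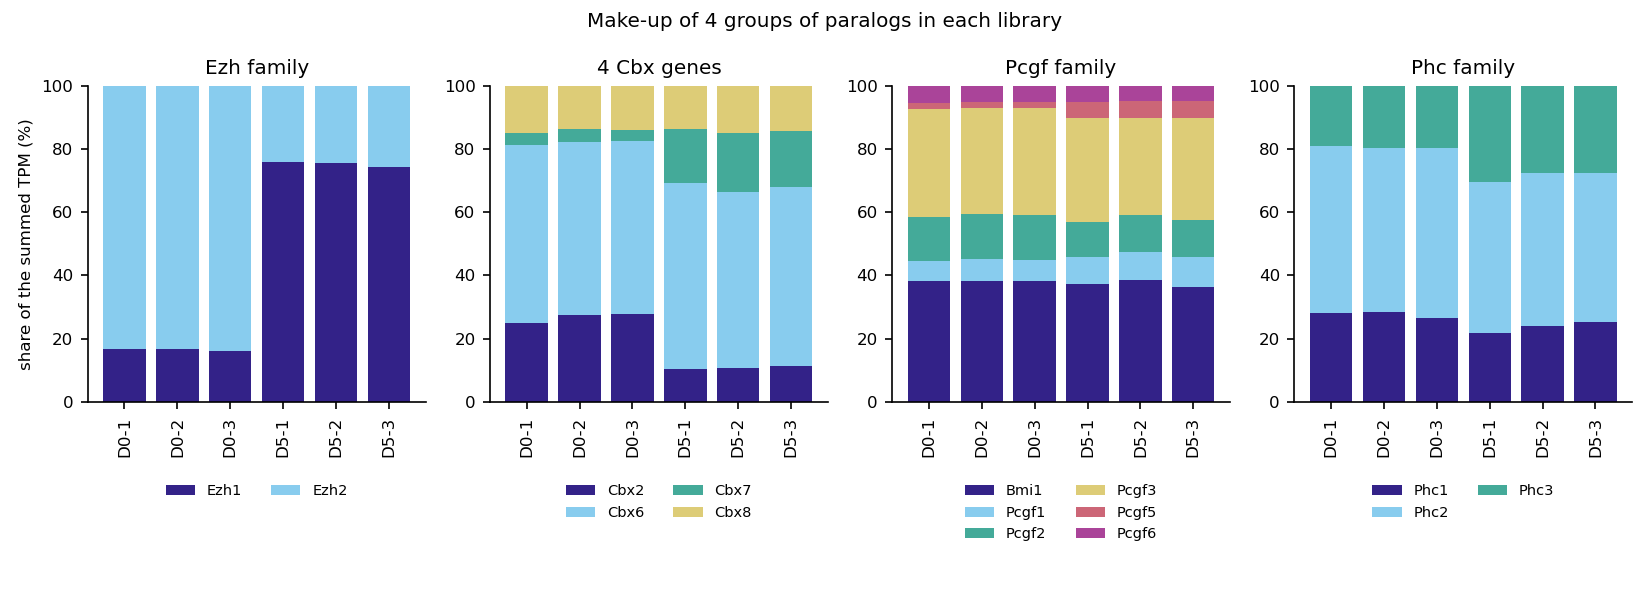
Share of each gene (%, vertical axes) in the summed TPM of its group of paralogs in each library (bars; D0-1 to D0-3 and D5-1 to D5-3), for the Ezh, Pcgf and Phc families and 4 Cbx genes. *Ezh1* goes from about 16.5% to 75.3% of its family and *Cbx7* from 3.70% to 17.95% of its group, while *Bmi1* stays at 38.3% and 37.5% of the Pcgf family.

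To show what the start regions of the genes that moved hold, RefSeq promoter windows (GRCm38.p6; the 250 bases before a start) were searched on both strands. The motifs were E2F words, which many cell cycle promoters carry (TTTCCCGC, TTTGGCGC, TTTCGCGC, TTTGCCGC), the CCAAT box and the E-box CAGCTG, a sequence that myogenic factors can bind. Of the 10 genes, 8 had an entry, in 9 windows. *Ezh2*, which fell, had 3 CCAAT boxes, 90, 64 and 11 bases before its start, and 2.79% of all 32851 promoters held at least 3. Its window held no E2F word and no CAGCTG. The RefSeq start of *Ezh2* (47595030) lies inside the GENCODE gene, which starts at 47595341 on the minus strand, so these boxes lie within that gene. *Suz12*, which also fell, held an E2F word 219 bases and a CCAAT box 61 bases before its start, and 1.86% of promoters held an E2F word and 33.8% a CCAAT box. *Ezh1*, which rose, held none of the words searched in its window. The E-box was searched only as CAGCTG. Other forms of the E-box were not searched, and letters of such forms do occur in the *Ezh1* window. The boxes of *Ezh2* are shown with their flanks, the one nearest the start inside an annotated GENCODE exon, and the *Suz12* and *Ezh1* windows up to the start, each on the strand of its gene. Capitals mark an E2F word or a CCAAT box, read as ATTGG where it lies on the other strand, and a match is a match of letters and not a measured site.
Ezh2, chr6:47595106-47595130: cggccctctgATTGGacgggcgccc
Ezh2, chr6:47595080-47595104: ctcgcatcctCCAATcggagaggcg
Ezh2, chr6:47595031-47595051: agcgatggcgATTGGgttgct
Suz12, chr11:79992856-79993105: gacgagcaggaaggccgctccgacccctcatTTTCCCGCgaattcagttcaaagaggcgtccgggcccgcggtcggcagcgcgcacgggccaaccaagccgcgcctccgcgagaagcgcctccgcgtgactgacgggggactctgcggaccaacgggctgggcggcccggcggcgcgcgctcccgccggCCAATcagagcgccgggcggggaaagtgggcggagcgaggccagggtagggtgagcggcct
Ezh1, chr11:101226464-101226713: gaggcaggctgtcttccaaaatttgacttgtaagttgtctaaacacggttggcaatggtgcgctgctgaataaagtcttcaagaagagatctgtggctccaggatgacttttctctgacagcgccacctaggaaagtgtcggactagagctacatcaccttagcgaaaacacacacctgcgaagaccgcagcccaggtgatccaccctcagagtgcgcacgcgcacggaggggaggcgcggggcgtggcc
Among the other entries, *Jarid2* held 1 CCAAT box in 1 of its windows and a CAGCTG in the other. *Ring1* held a CAGCTG, as 13.0% of promoters did. *Eed*, *Bmi1* and *Kdm6a* held none of the words searched.

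The other core subunits of PRC2 changed by less than the methyltransferases. *Suz12* (chr11:79993106-80034123, plus strand), the scaffold on which the complex assembles, was at 132, 128 and 131 CPM at D0 and at 68.2, 67.6 and 68.0 CPM at D5. The D5 libraries were nearly level with each other and all below D0, and the log2 fold change was -0.94 (SE 0.04, adjusted p 7.2e-21 in edgeR's test). *Eed* (chr7:89954654-89980983, minus strand), which binds trimethylated H3K27 and stimulates the enzyme, was at 32.2, 30.5 and 31.0 CPM at D0 and at 26.6, 24.8 and 26.0 CPM at D5. Its groups did not overlap, and its fall was shallower, with a log2 fold change of -0.28 (SE 0.05, adjusted p 9.9e-06 in edgeR's test). The call for *Eed* was lost under spike-in scaling (log2 fold change -0.86, adjusted p 0.20).

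*Jarid2* (chr13:44729474-44921643, plus strand), an accessory protein that brings PRC2 to its targets, was at 42.0, 42.0 and 44.3 CPM at D0 and at 47.4, 47.0 and 45.0 CPM at D5. The groups were adjacent without overlapping in CPM, and they overlapped in TPM. Its log2 fold change of 0.12 (SE 0.04, adjusted p 0.013 in edgeR's test) was the weakest call of the 10 genes beside that of *Kdm6a*, and it turned to -0.44 with the spike-ins and to -0.56 without scaling. The call was also lost with scaling to total counts (0.04), without a filter on low counts (0.07), without D0 replicate 1 (0.09) and without D0 replicate 2 (0.10).

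*Suz12* fell further than *Eed* and than the sum of *Ezh1* and *Ezh2*, and the proportions of the core RNAs changed with it. Per length, *Ezh1* and *Ezh2* together were 0.687 ± 0.026 times *Suz12* at D0 and 1.147 ± 0.032 times at D5 (SD, n = 3), and the groups did not overlap. The ratio of *Eed* to *Suz12* went from 0.310 ± 0.006 to 0.491 ± 0.015, also without overlap. By contrast, the ratio of the summed methyltransferases to *Eed* was 2.22 ± 0.12 at D0 and 2.34 ± 0.07 at D5, with overlapping libraries. These ratios were chosen after the values were seen and were not tested.

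Of the 9 other PRC2 subunits listed, all were tested, 6 were lower and 2 higher after TMM, beside 40.8% and 42.2% of all genes tested, and the median log2 fold change was -0.20. With the spike-ins 1 was lower and 0 were higher, beside 23.0% and 11.1% of all genes tested. The largest change was that of *Epop*, an accessory subunit of the PRC2.1 form, which fell from 7.23 ± 0.41 to 2.71 ± 0.06 CPM (log2 fold change -1.42). *Phf1*, a Polycomb-like accessory protein, rose from 16.7 ± 1.25 to 26.9 ± 1.88 CPM (log2 fold change 0.69), and was near 0 with the spike-ins (0.15) and without scaling (0.01). Its paralog *Phf19* fell (-0.53), and so did the histone-binding subunit *Rbbp7* (-0.61) and the accessory subunit *Aebp2* (-0.48). *Lcor*, the gene of a PRC2.1 accessory protein, was higher by 0.34 after TMM and lower with the spike-ins (-0.22) and without scaling (-0.34). Counts are per gene and do not tell the transcripts of *Lcor* apart.

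Of the 3 PRC1 genes among the 10, *Cbx2* changed the most. *Cbx2* (chr11:119022962-119031270, plus strand), a chromobox subunit that binds methylated H3K27 and compacts chromatin, was at 24.2, 27.5 and 28.8 CPM at D0 and at 8.80, 9.09 and 10.4 CPM at D5. Every D5 library was far below every D0 library, although *Cbx2* varied more between D0 replicates, relative to its level, than the other genes. Its log2 fold change was -1.51 (SE 0.07, adjusted p 5.8e-18 in edgeR's test), and 9.15% of the genes tested fell further.

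*Cbx7*, another chromobox reader of the mark, moved against *Cbx2*. It rose from 5.65 ± 0.50 to 23.7 ± 1.56 CPM (log2 fold change 2.07, adjusted p 3.0e-21 in edgeR's test), and it stayed higher with the spike-ins (1.51) and without scaling (1.38). *Cbx8* (-0.22) and *Cbx6* (-0.17) fell slightly. Per length, among *Cbx2*, *Cbx6*, *Cbx7* and *Cbx8*, *Cbx2* went from 26.7% ± 1.52 to 10.9% ± 0.53 of the summed TPM and *Cbx7* from 3.70% ± 0.35 to 17.95% ± 0.84 (SD, n = 3), and neither share overlapped between groups. *Cbx6*, at 55.4% ± 0.92 and 57.0% ± 1.55, and *Cbx8*, at 14.2% ± 0.66 and 14.2% ± 0.60, overlapped, and *Cbx6* was the main RNA of these 4 genes on both days. Their summed TPM went from 81.6 ± 4.08 to 63.2 ± 2.26.

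*Bmi1* (chr2:18677018-18686629, plus strand), the PCGF protein that activates the RING ligases in canonical PRC1, was at 87.7, 89.2 and 89.9 CPM at D0 and at 76.4, 78.3 and 71.7 CPM at D5. The D5 libraries were lower in every case, by a log2 fold change of -0.24 (SE 0.04, adjusted p 1.6e-06 in edgeR's test). With the spike-ins this was -0.78 (adjusted p 0.24 in edgeR's test), which did not pass. Its paralog *Pcgf2* fell further (-0.50), and the ratio of *Bmi1* to *Pcgf2* in TPM was 2.73, 2.67 and 2.71 at D0 and 3.37, 3.33 and 3.06 at D5 (difference 0.27 in log2; exact permutation p = 0.1, adjusted p 0.1, the smallest possible). *Bmi1* held its place in the family, with 38.3% ± 0.15 of the summed TPM at D0 and 37.5% ± 1.13 at D5, and these shares overlapped.

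The PCGF genes of variant PRC1, which work without a chromobox protein, differed more among themselves. *Pcgf5* rose from 13.6 ± 0.56 to 33.3 ± 0.18 CPM (log2 fold change 1.29, adjusted p 1.0e-19 in edgeR's test), and remained positive with the spike-ins (0.73, not past the threshold). *Pcgf1* was higher after TMM (0.20), but lower with the spike-ins (-0.38) and without scaling (-0.49). *Pcgf3* (-0.30) and *Pcgf6* (-0.27) fell. In shares, *Pcgf5* went from 1.84% ± 0.06 to 5.21% ± 0.07, *Pcgf1* from 6.70% ± 0.25 to 8.88% ± 0.51, *Pcgf2* from 14.2% ± 0.17 to 11.5% ± 0.40 and *Pcgf3* from 33.9% ± 0.21 to 31.9% ± 1.06, while *Pcgf6* was at 5.17% ± 0.29 and 4.94% ± 0.12 with overlapping libraries (SD, n = 3).

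*Ring1* (chr17:34020792-34024680, minus strand), a ubiquitin ligase of PRC1, was at 19.2, 18.5 and 19.3 CPM at D0 and at 24.4, 26.5 and 24.6 CPM at D5. All D5 libraries lay above all D0 libraries, with a log2 fold change of 0.41 (SE 0.05, adjusted p 7.4e-08 in edgeR's test) after TMM, which turned to -0.14 with the spike-ins and to -0.28 without scaling. The other ligase, *Rnf2*, was higher by 0.12 (adjusted p 0.034 in edgeR's test) with overlapping libraries after TMM, and lower with the spike-ins (-0.44) and without scaling (-0.57). Within libraries the ratio of *Ring1* to *Rnf2* in TPM went from 0.723, 0.702 and 0.720 to 0.791, 0.921 and 0.921, so that *Rnf2* exceeded *Ring1* in every library and by less at D5. That difference was 0.29 in log2 (exact permutation p = 0.1, adjusted p 0.1, the smallest possible).

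Of 11 other canonical PRC1 genes, 10 were tested, 7 were lower and 3 higher after TMM, beside 40.8% and 42.2% of all genes tested, with a median log2 fold change of -0.30, and *Scml2* was not detected. With the spike-ins 1 was lower and 1 higher, beside 23.0% and 11.1% of all genes tested. *Scmh1*, a Sex comb on midleg homolog, fell (-0.40). Among the Polyhomeotic genes, which polymerize and cluster PRC1, *Phc1* (-0.46) and *Phc2* (-0.38) fell, whereas *Phc3* was higher by 0.32 after TMM and lower with the spike-ins (-0.25) and without scaling (-0.36). The share of *Phc3* in the summed TPM of the 3 genes went from 19.3% ± 0.38 to 28.5% ± 1.65, that of *Phc2* from 53.1% ± 1.00 to 47.9% ± 0.69 and that of *Phc1* from 27.6% ± 1.04 to 23.6% ± 1.69 (SD, n = 3), with no overlap. Among 13 variant PRC1 genes, 8 were lower and 5 higher after TMM, beside 40.8% and 42.2% of all genes tested, with a median of -0.28. With the spike-ins 3 were lower and 0 higher, beside 23.0% and 11.1% of all genes tested. Without scaling 11 were lower and 1 higher, beside 67.2% and 20.6%. *Auts2*, a partner of the PCGF3 and PCGF5 complexes, fell from 81.4 ± 2.46 to 19.95 ± 0.62 CPM (log2 fold change -2.03), and the corepressor *Bcor* (-0.99) and the CpG-island-binding subunit *Kdm2b* (-0.73) fell as well. *E2f6*, a repressor of the E2F family in this complex, was higher after TMM (0.70) and near 0 with the spike-ins (0.13) and without scaling (0.02). Its partner *Mga* (0.29) and the corepressor *Bcorl1* (0.26) were higher after TMM, and lower with the spike-ins (-0.28 and -0.32) and without scaling (-0.40 and -0.42).

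The demethylases also differed. *Kdm6b* (chr11:69398508-69413675, minus strand), which encodes JMJD3, was at 215, 203 and 220 CPM at D0 and at 139, 139 and 149 CPM at D5. All D5 libraries were below all D0 libraries, and *Kdm6b* kept 66.9% of its D0 level (log2 fold change -0.58, SE 0.04, adjusted p 3.8e-15 in edgeR's test). With the spike-ins the log2 fold change was -1.16 with an adjusted p of 0.069, and the call was lost.

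*Kdm6a* (chrX:18162575-18279936, plus strand), which encodes the X-linked demethylase UTX, was at 65.5, 67.6 and 67.3 CPM at D0 and at 69.8, 72.8 and 73.0 CPM at D5. The groups lay close together without overlapping, and in TPM they overlapped. Its log2 fold change was 0.11 (SE 0.04, adjusted p 0.012 in edgeR's test) after TMM and turned to -0.46 with the spike-ins and to -0.58 without scaling. The call was lost with total counts (0.02), without a filter on low counts (0.05) and without D0 replicate 1 (0.08). In the ratio of *Kdm6b* to *Kdm6a*, which no scaling of libraries touches, the TPM values were 3.95, 3.62 and 3.94 at D0 and 2.39, 2.30 and 2.46 at D5. *Kdm6b* was thus the more abundant demethylase RNA per length on both days, by less at D5 (difference -0.69 in log2; exact permutation p = 0.1, adjusted p 0.1, the smallest possible). The Y-linked paralog *Uty* had 0 counts in every library.

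**Figure D3:**
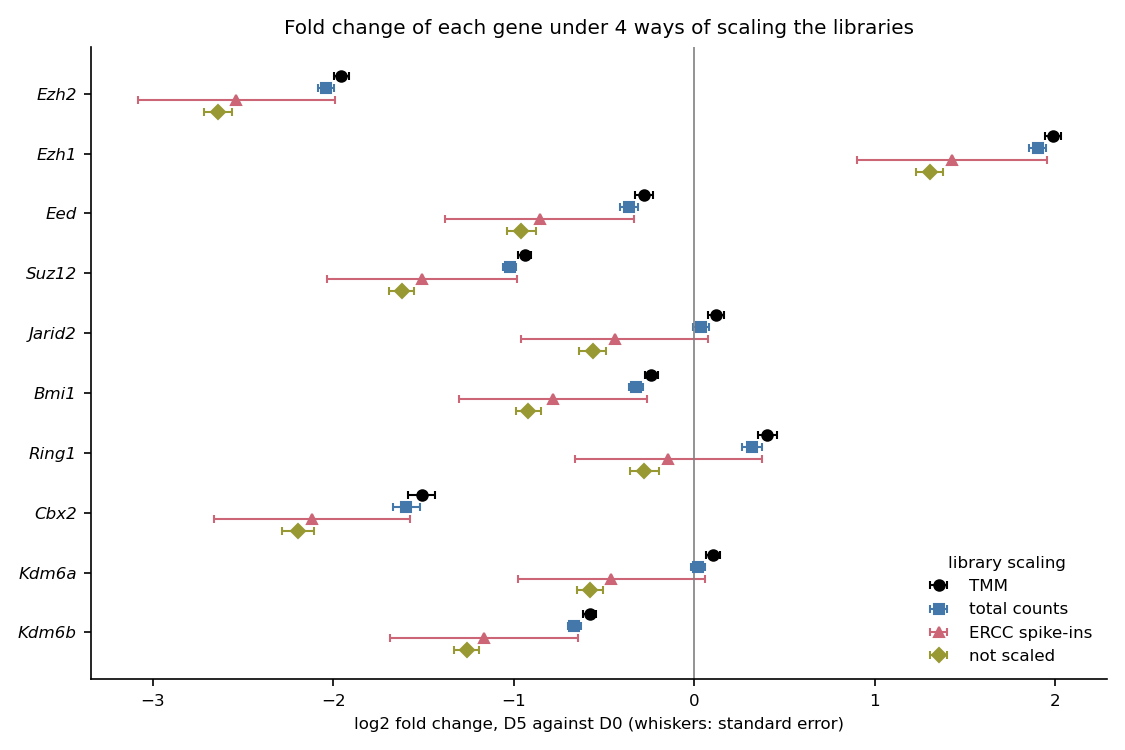
Log2 fold change of D5 against D0 (horizontal axis, with the standard error) of the 10 genes from edgeR fits with TMM, total counts, ERCC spike-ins or no scaling of the libraries. *Ezh2*, *Suz12*, *Cbx2* and *Ezh1* stay on their side of 0, *Ring1*, *Jarid2* and *Kdm6a* cross it, and the spike-in fit has the widest errors.

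The order of the 10 genes by level per length changed with the day. At D0 it ran from *Kdm6b* (106 ± 4.72 TPM) over *Suz12* (91.1 ± 1.93), *Bmi1* (77.5 ± 2.19) and *Ezh2* (52.2 ± 2.25) to *Eed* (28.3 ± 0.52), *Kdm6a* (27.6 ± 0.85), *Cbx2* (21.8 ± 2.27), *Ring1* (20.3 ± 0.57), *Jarid2* (15.2 ± 0.68) and, last, *Ezh1* (10.3 ± 0.37 TPM; SD, n = 3). At D0 the libraries of *Eed* and *Kdm6a* overlapped, and so did those of *Cbx2* and *Ring1*, so these neighbours were not separated. Overlap covers the spread between libraries and not an error in the exonic lengths. At D5 it ran from *Kdm6b* (63.4 ± 2.52 TPM) over *Bmi1* (58.9 ± 2.85), *Suz12* (42.6 ± 1.03) and *Ezh1* (36.8 ± 2.12) to *Kdm6a* (26.6 ± 0.24), *Ring1* (24.1 ± 0.77), *Eed* (20.9 ± 1.14), *Jarid2* (14.8 ± 0.60), *Ezh2* (12.1 ± 0.48) and *Cbx2* (6.87 ± 0.58 TPM), with no overlap between neighbours. *Ezh1* and *Ezh2* thus passed each other, *Ezh1* going from rank 10 to rank 4 and *Ezh2* from rank 4 to rank 9.

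**Figure D4:**
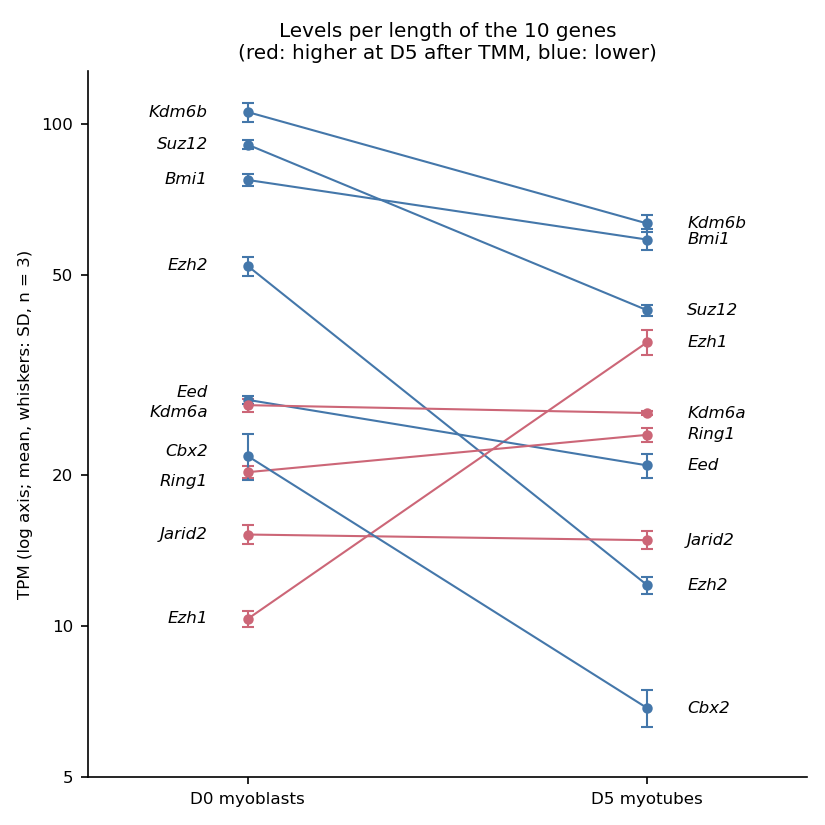
Mean TPM (log axis, with the SD over 3 libraries) of the 10 genes at D0 and D5. *Ezh1* (red) climbs from 10.3 to 36.8 TPM past the falling *Ezh2* (blue, 52.2 to 12.1 TPM), while the lines of *Jarid2* and *Kdm6a*, called higher after TMM, are almost flat in TPM.

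Of the genes that oppose or complement the Polycomb complexes, more were called lower than higher after TMM, and few were called with the spike-ins. The MLL3/4 complex, which carries KDM6A and methylates lysine 4 of histone H3, had 8 of its 10 listed genes tested, and 7 were lower and 0 higher after TMM, beside 40.8% and 42.2% of all genes tested, with a median log2 fold change of -0.37. With the spike-ins 1 was lower, beside 23.0% of all genes tested. *Paxip1*, its PTIP subunit, fell the most, from 64.0 ± 2.06 to 25.4 ± 1.22 CPM (-1.33), and the count of higher genes was also 0 with DESeq2 and at an unadjusted p under 0.05. Next in size were *Ash2l* (-0.48), *Ncoa6* (-0.47), *Dpy30* (-0.39) and *Rbbp5* (-0.36). *Pagr1a*, like *Uty*, was not detected. Of 6 trithorax genes, 5 were lower after TMM, beside 40.8% of all genes tested, and 1 with the spike-ins, beside 23.0%. Among the 5 were *Men1* (-0.75), *Kmt2a* (-0.62), *Setd1a* (-0.58) and *Kmt2b* (-0.40). The remaining gene of that list, *Ash1l*, was higher after TMM (0.18) and lower with the spike-ins (-0.38) and without scaling (-0.50).

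The acetyltransferases and deubiquitinases changed little after TMM. *Crebbp*, which acetylates H3K27, fell by 0.33 on the log2 scale after TMM and did not pass with the spike-ins. *Ep300*, which also acetylates H3K27, was at 214 ± 6.63 CPM at D0 and 208 ± 7.22 CPM at D5 and did not pass the test with TMM. It was called lower with total counts, without scaling and without a filter on low counts. Of 5 genes for removal of ubiquitin from H2A, 4 were tested and 1 passed after TMM, beside 82.9% of all genes tested. This gene, *Bap1*, was higher after TMM (0.24) and lower with the spike-ins (-0.34) and without scaling (-0.44). No gene of that list was lower in edgeR's test with TMM, beside 40.8% of all genes tested. Nor was any lower with DESeq2 or at an unadjusted p under 0.05 in the TMM fit. By contrast, 2 were lower with total counts, 4 without scaling and 1 without a filter on low counts. The shares of all genes tested that were lower in these settings were 44.5%, 67.2% and 26.1%. *Asxl3* was not detected. Without D0 replicate 1, *Asxl2* was lower (log2 fold change -0.09, adjusted p 0.046 in edgeR's test). Over all 56 other Polycomb, trithorax and H3K27 genes, 52 were tested, of which 34 were lower and 12 higher, beside 40.8% and 42.2% of all genes, and the median log2 fold change was -0.28, beside 0.0022 over all genes. With the spike-ins 7 were called lower and 1, *Cbx7*, higher, beside 23.0% and 11.1% of all genes tested. Of the 12, 8 fell below 0 both with the spike-ins and without scaling.

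**Figure D5:**
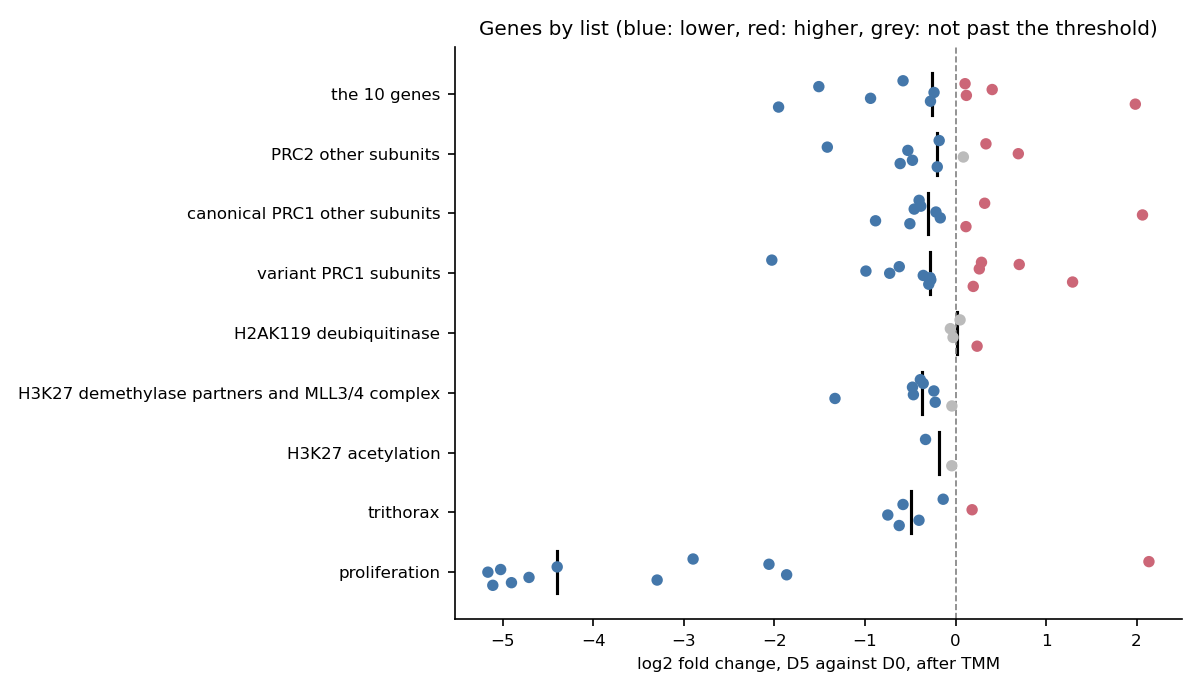
Log2 fold change of D5 against D0 after TMM (horizontal axis) of every tested gene in each list (points; blue lower, red higher, grey not past the threshold), with the list's median as a black bar and the median of all genes tested as a dashed line. The medians lie between -0.49 and 0.01, with that of the deubiquitinases just above the dashed line and the others below it, and the proliferation list is at -4.40.

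Genes that Polycomb is known to silence moved in different directions. *Pax7*, the satellite cell factor that is silenced as muscle cells differentiate, fell from 18.02 ± 0.39 to 5.49 ± 0.66 CPM (log2 fold change -1.71, adjusted p 2.0e-18 in edgeR's test). *Cdkn1c*, an inhibitor of the cell cycle, rose from 0.184 ± 0.016 to 4.33 ± 0.17 CPM (4.53, adjusted p 6.1e-18). *Cdkn2a* and *Cdkn2b*, the classical Polycomb targets that restrain the cell cycle, had 0 counts in all 6 libraries, which allows up to 3 counts in each, or between 0.073 and 0.118 CPM. Counts of 0 cannot tell silencing of a gene from its absence in this cell line. Why no RNA of these genes was counted on either day was not tested. The median log2 fold changes of the proliferation list (-4.40) and of the muscle list (7.32) stand beside every change given here, and their part in it was not tested.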

How the data were processed

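RNA-seq of 6 C2C12 libraries (3 at D0, 3 at D5) was analysed. Per the labels and the study's methods, the authors aligned reads to GRCm38 and counted them per gene with featureCounts, and the deposited values are these counts without normalization. The labels name Tophat2 and the methods HISAT2 as the aligner. The annotation release and strand setting are not given in the sources used here. Genes antisense to or overlapping *Ezh2*, *Eed*, *Suz12* and *Kdm6b* had at most 16 counts a library. Reads shared between paralogs cannot be followed. Whether libraries came from separate cultures is not spelled out beyond their number, so p-values measure the spread between these samples, which may be technical. Replicates differed by more than sampling noise (chi-square over degrees of freedom, 2.16 to 3.45).

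The 92 ERCC spike-in rows (0.720% to 2.09% of counts) and 1 unnamed row equal to the column total were left out of library sizes. Counts were filtered with filterByExpr, scaled by TMM and tested with edgeR 4.0.16 (quasi-likelihood, R 4.3.3), with p-values adjusted by Benjamini-Hochberg over 16290 genes and a threshold of 0.05. Standard errors were taken as the size of the log2 fold change over the root of the F statistic. TPM used exonic lengths of GENCODE for GRCm38, which held 99.8% of the genes. All annotated exons of a gene were merged, and levels compared between different genes rest on that length. Ratios of TPM were tested by an exact permutation test in scipy 1.17.1. The limit for not detected, 3 counts, covers counting error only. The alternatives were DESeq2 1.42.0, other scalings and filters, each library left out and a replicate block.

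The genes and lists were chosen with earlier results of these data known. Named are the 10 genes, the Ezh, Cbx, Pcgf and Phc families, up to 5 genes past the threshold of each list by size of change (4 for proliferation and for muscle), and those not detected. One gene that this rule names is not reported here, and the Cbx shares were taken over 4 genes. *E2f2*, *Myf5*, *Myod1*, *Lcor*, *Mga*, *Bcorl1*, *Asxl2* and *Ep300* were named after their values were seen.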

Additional observations from a re-analysis of the deposited data

How the results depend on the processing

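Of the 10 genes, *Ezh2*, *Ezh1*, *Suz12* and *Cbx2* kept their direction and their call under all 14 alternatives. The other calls were not kept under all of them. Those of *Eed*, *Bmi1* and *Kdm6b* were lost only with the spike-ins. There the log2 fold changes stayed negative (-0.86, -0.78 and -1.16), each with a standard error of 0.52. Scaling to the ERCC spike-ins, whose share varied most at D5, left 5560 genes past the threshold against 13510, 3 of the 10 genes lower and 1 higher, and 7 other Polycomb, trithorax and H3K27 genes lower and 1 higher. With counts not scaled, 1 of the 10 genes and 2 of the other genes were higher, beside 20.6% of the genes tested. The share of calls that were lower was 49.2% with TMM, 67.4% with the spike-ins and 76.6% without scaling. Under the spike-ins and without scaling, respectively, the log2 fold change was -0.44 and -0.56 for *Jarid2*, -0.14 and -0.28 for *Ring1* and -0.46 and -0.58 for *Kdm6a*. Scaling to total counts and leaving out the filter on low counts each left 2 of the 10 genes higher, beside 38.6% and 26.1% of the genes tested. Leaving out 1 library gave 6 of the 10 genes lower and from 2 to 4 higher, with 2 without D0 replicate 1. Of the other Polycomb, trithorax and H3K27 genes, from 33 to 35 were lower and from 10 to 12 higher. Of all genes tested, from 38.7% to 40.2% were lower and from 40.4% to 41.7% higher, with from 13236 to 13599 past the threshold. The log2 difference of the *Ezh2* to *Ezh1* ratio stayed between -3.98 and -3.92. Counts not scaled keep the greater depth of the D0 libraries, which lowers every log2 fold change in that setting. Apart from this, where an alternative changed a call, the cause was not tested. Libraries that share a number deviated together with correlations of 0.022, 0.123 and 0.057. Every library except D5 replicate 1 correlated best with its own number. That library was at 0.0223 with D0 replicate 1 and at 0.0231 with D0 replicate 3. The correlations were low, and the numbers were not taken as pairs in the main fit. With the replicate number as a block, 13558 genes passed and 6 of the 10 genes were lower and 4 higher, beside 40.9% and 42.3%.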
